A study of Homo sapiens with 22 samples.

Results

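Human genes whose approved symbol is ZNF followed by a number encode proteins built around zinc fingers, and many of them lie in large clusters on chromosome 19. The genes described here are the protein-coding ZNF genes on all other chromosomes, with ZNF598 left out because it was the target of the knockdown. Of 261 such genes, 189 had a mean of at least 1 CPM, a count scaled to library size, over the libraries of 0-10 h and were kept, and 72 fell below that level. Each gene was represented by its protein-coding transcript with the highest mean count, and the tests were run on 15057 transcripts, 1 for each gene of any kind. The members nearest the limit were ZNF519, ZNF425 and ZNF853, at 1.02, 1.04 and 1.06 CPM. The genes just below it were ZNF341, ZNF521 and ZNF669, at 0.963, 0.952 and 0.935 CPM.

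The values come from BRIC-Seq, which follows RNA decay by labelling transcripts with bromouridine (BrU), a uridine analogue, and then recovering labelled RNA while the cells grow without it. HEK293T, an embryonic kidney line, expressed a control short hairpin RNA (shControl) or one directed at ZNF598 (shZNF598). Both groups received 150 µM BrU for 24 h and were then chased in BrU-free medium. Cells were taken with no chase (0 h), at 2 and 4 h, at 6 and 10 h and at 24 h, with 2 libraries per hairpin at each time up to 10 h and 1 per hairpin at 24 h, 22 in all. The labels do not say whether replicates were separate cultures, so p-values measure only the spread between these libraries. In such bulk samples, fewer cells that express a gene and less of its RNA per cell cannot be told apart.

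A C2H2 finger is a short fold in which a pair of cysteines and a pair of histidines hold a zinc ion, and tandem fingers read DNA or, in some proteins, bind RNA. Many ZNF proteins also carry a KRAB box, which recruits the co-repressor TRIM28 and through it the histone methyltransferase SETDB1 and HP1 proteins, so that repeats and genes under the bound sites are silenced. Others carry a SCAN domain, through which such proteins pair with each other. ZNF598 is an E3 ubiquitin ligase that marks ribosomes which have collided on an mRNA, and the study asked whether mRNAs that encode zinc fingers are among those it removes.

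In the canonical protein of each member, translated here from GENCODE release 44, 184 of 189 held at least 1 C2H2 pattern, C-x(2,4)-C-x(12)-H-x(3,5)-H, against 5.25% of all coding genes tested. The median was 9 fingers, and ZNF142 had the most, 36. A KRAB box pattern was found in 65 members, a SCAN pattern without KRAB in 13, fingers with neither in 106 and no finger in 5. These short patterns miss divergent domains: ZNF24 and ZNF174 are known SCAN proteins, and ZNF202, ZNF282, ZNF398 and ZNF425 are known KRAB proteins, yet none matched its pattern. The coding sequence of 1 finger (the one nearest the start of the protein) is shown for 7 members that the results turn on, read from the GENCODE transcripts on GRCh38. Capitals mark the codons of the cysteines and histidines that the pattern matched, which need not all be the residues that hold the zinc. In ZNF391 a further cysteine codon, in lower case, lies between the capital cysteine codons. ZNF678 (chr1:227654545-227654607, plus strand) and ZNF391 (chr6:27400695-27400763, plus strand) declined among the steepest. ZNF236 (chr18:76849591-76849653, plus strand) and ZNF124 (chr1:247157190-247157252, minus strand) rose against the bulk. ZNF770 (chr15:34983288-34983350, minus strand) and ZNF24 (chr18:35337520-35337582, minus strand) were higher in shZNF598 cells, and ZNF768 (chr16:30525291-30525353, minus strand) was a gene the study followed up.
ZNF678: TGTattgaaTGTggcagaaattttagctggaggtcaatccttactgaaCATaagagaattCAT
ZNF391: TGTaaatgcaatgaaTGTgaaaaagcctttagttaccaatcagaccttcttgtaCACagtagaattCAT
ZNF236: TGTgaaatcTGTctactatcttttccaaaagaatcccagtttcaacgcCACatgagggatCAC
ZNF124: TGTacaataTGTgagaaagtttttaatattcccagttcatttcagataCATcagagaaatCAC
ZNF770: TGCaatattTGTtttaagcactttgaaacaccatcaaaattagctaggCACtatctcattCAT
ZNF24: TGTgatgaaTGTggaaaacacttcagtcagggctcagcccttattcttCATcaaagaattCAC
ZNF768: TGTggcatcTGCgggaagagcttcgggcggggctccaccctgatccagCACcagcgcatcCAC
The 4 marked residues recur in every one, but their codons vary (TGT or TGC for cysteine, CAT or CAC for histidine). The bases between them differ too: the ZNF768 stretch is 66.7% G or C, and the ZNF124 stretch is 30.2%.

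The 20 libraries of 0-10 h held between 52352359 and 96963584 counts each. Those of 24 h were shallower, at 21220829 in shControl and 40157613 in shZNF598. A member had a median of 105 to 490 counts per library over 0-10 h, and the members together took 0.0650% to 0.222% of all counts. The targeted gene, ZNF598, had 200 to 630 counts in each shControl library and 34 to 86 in each shZNF598 library over 0-10 h, a log2 difference of -3.06 (SE 0.09, edgeR adjusted p = 2.94e-17). At 24 h it was at 4.62 CPM in shControl and 2.27 CPM in shZNF598, so the gap was narrower in those single libraries. Of 7 markers of HEK293T cells, 6 had a median of at least 1 CPM (PAX2 was at 0.0390 CPM), and of 6 markers of blood, liver, fibroblast and endothelial cells only COL1A1 did, at 1.01 CPM. CD3E was at 0 in every library of 0-10 h, and PTPRC, ALB and PECAM1 had medians of 0. The shControl 0 h libraries were the least alike of any replicate pair (Pearson r across transcripts of 0.977, against 0.997 for the closest pair).

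Most members were of low abundance. The median member stood at 3.95 CPM, with quartiles of 2.24 and 7.48 CPM. Per kilobase of transcript the median was 0.982 CPM, the highest was ZNF664 at 16.3 CPM and the lowest ZNF462 at 0.113 CPM. The members with the most counts were ZNF24, ZNF664, ZNF207, ZNF638 and ZNF106, at 75.8, 70.3, 43.9, 38.5 and 34.7 CPM. Per kilobase, ZNF24 stood at 12.1 CPM, ZNF638 at 5.65, ZNF106 at 3.32 and ZNF207 at 3.18. ZNF207, also called BuGZ, works at spindles and kinetochores, and ZNF638 and ZNF106 bind RNA.

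The question of the shControl series was how fast each transcript left the labelled pool. The libraries were scaled by TMM, which sets the bulk of each to the same level, so a slope of 0 means loss at the pace of the bulk and not a stable mRNA. The members declined faster than the bulk: 122 of 189 had a slope below 0 at an adjusted p below 0.05 in edgeR's quasi-likelihood test (64.6%, where 42.4% of all transcripts tested did). Only 8 rose against the bulk (4.23%, against 32.2% of all transcripts), and of all transcripts 74.7% passed in either direction. Their median slope was -0.12 log2 per h, and that of all 15057 transcripts was -0.03. Among the 10731 protein-coding transcripts alone the median was -0.05. With total-count scaling in place of TMM both medians moved down, to -0.19 for the members and -0.10 for all transcripts, and their distance was -0.09 log2 per h under both. The choice of times mattered more. Without the 0 h libraries 73 members declined, with a median 0.03 below that of all transcripts (-0.06 against -0.03), and over 0-24 h 19 did, with medians of -0.02 and -0.01. The shares of all transcripts that declined in these fits are not given here. Over 0-4 h the distance was -0.27.

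**Figure D1:**
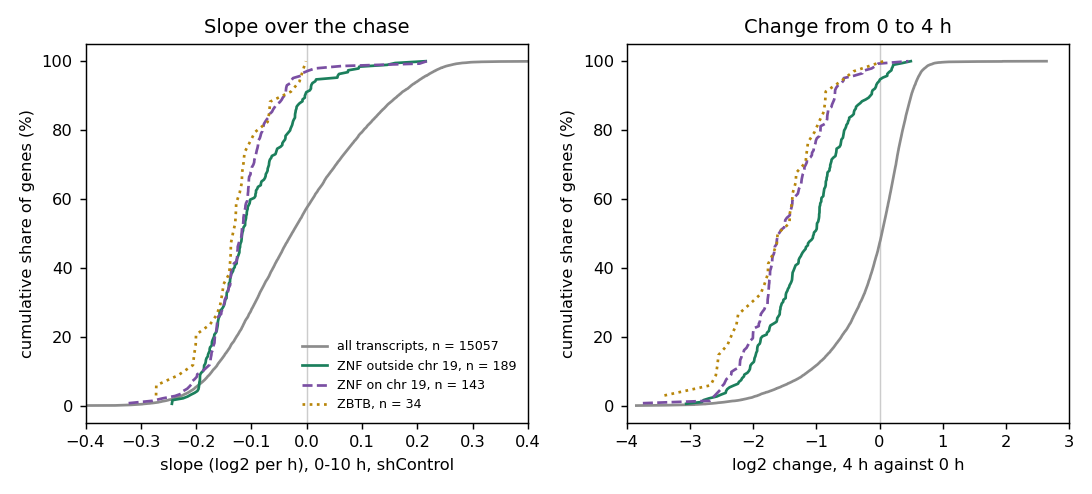
Cumulative share of genes (y, percent) against the slope over 0-10 h in shControl (left, log2 per h) and against the change from 0 to 4 h averaged over both hairpins (right, log2). The curve of the 189 members lies to the left of the curve of all 15057 transcripts over most of its length in both panels, with medians of -0.12 and -1.04. The curves of ZNF genes on chromosome 19 and of ZBTB genes lie further left from 0 to 4 h, with medians of -1.58 and -1.52.

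The steepest slopes among the members belonged to ZNF678, ZNF92, ZNF391, ZNF22, ZNF267, ZNF2, ZNF287 and ZNF239, from -0.24 to -0.20 log2 per h. ZNF678 (on chromosome 1) read 36.9 and 30.3 CPM at 0 h in the shControl libraries, 33.0 and 34.1 at 2 h, 19.8 and 22 at 4 h, 15 and 12 at 6 h and 7.20 and 7.13 at 10 h. It was level until 2 h and lower at each later time, with no overlap between 2, 4, 6 and 10 h, and its slope was -0.24 log2 per h (SE 0.02, edgeR adjusted p = 5.17e-10). ZNF92, a KRAB protein gene on chromosome 7, read 10.6 and 9.46 CPM at 0 h, 4.26 in both libraries at 2 h, 1.59 and 1.81 at 4 h, 1.88 and 1.65 at 6 h and 1.81 and 1.90 at 10 h. Nearly all of its loss lay before 4 h, and the values at 4, 6 and 10 h overlapped. These slopes describe 0-10 h: over 0-24 h ZNF391, ZNF22, ZNF267, ZNF2, ZNF287 and ZNF239 lost their calls, with slopes from -0.07 to -0.0028, and without the 0 h libraries ZNF287 and ZNF239 did, at -0.10 and -0.02 (edgeR adjusted p = 0.176 and 0.769). The slope of ZNF239, -0.20, had an adjusted p of 0.014 in edgeR, and without the second shControl 0 h library it was -0.13 with an adjusted p of 0.104.

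The 8 members that rose against the bulk were ZNF124, ZNF354B, ZNF276, ZNF236, ZNF185, ZNF326, ZNF789 and ZNF664. ZNF124 (chromosome 1, KRAB) read 1.65 and 1.99 CPM at 0 h in shControl, 1.90 and 2.14 at 4 h, 2.96 and 2.99 at 6 h, 6.78 and 8.05 at 10 h and 18.6 in the single library of 24 h. Every library from 6 h on was above every earlier one, and the slope was 0.21 log2 per h (SE 0.03, edgeR adjusted p = 2.47e-07). ZNF236, which encodes 30 fingers, read 8.34 and 6.60 CPM at 0 h, 8.01 and 7.90 at 4 h, 13.7 and 14.9 at 10 h and 32.6 at 24 h. Its rise lay after 6 h. ZNF326, part of a complex that couples transcription to splicing, ZNF664 and ZNF789 had slopes of 0.07, 0.06 and 0.07 under TMM and of -0.00179, -0.0188 and -0.00156 under total-count scaling, so their direction depended on the scaling. ZNF236 and ZNF185 kept their direction under total counts but not their calls, at 0.02 log2 per h each (edgeR adjusted p = 0.232 and 0.392), so that ZNF124, ZNF354B and ZNF276 alone kept a called rise under both scalings. Of these 8 transcripts 2 were the canonical transcript of their gene, and of the 122 that declined 86 (70.5%) were. The ZNF354B transcript has no annotated 3′ UTR, and the ZNF789 one codes for 171 nt, so for these genes the row measured is a short isoform whose reads can be shared with others. ZNF276 shares 48.9% of its exonic length with FANCA on the opposite strand, and the strand setting of the counting is not given in the sources used here.

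The straight line hid a bend. Seen as group means, the level of the median member fell to 80.9% of its 0 h value at 2 h in shControl, 51.5% at 4 h and 45.1% at 6 h, and then stood at 51.0% at 10 h and 73.9% in the single 24 h library. In shZNF598 the same values were 78.1%, 53.3%, 48.3%, 53.0% and 72.3%. By contrast the median of all transcripts was at 103% of its 0 h value at 4 h and 84.7% at 10 h in shControl. The lowest group mean of 0-10 h fell at 6 h for 92 members in shControl, at 4 h for 50 and at 10 h for 37.

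**Figure D2:**
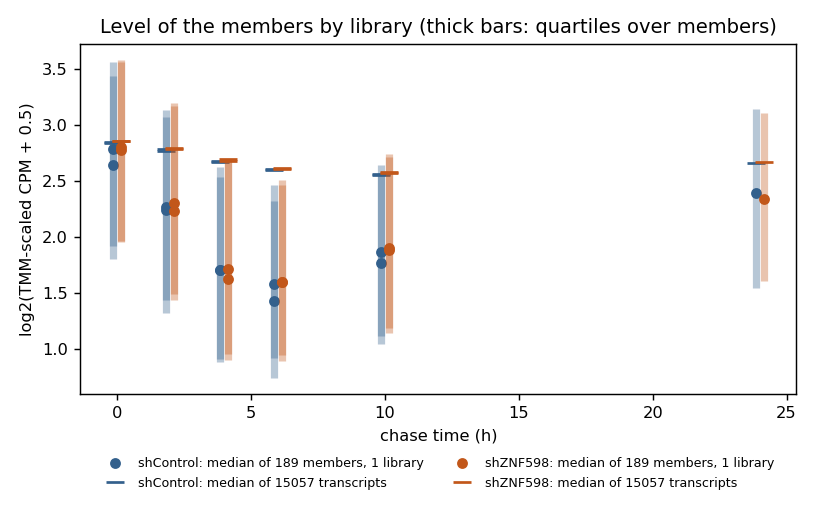
Level of the members, as log2 of TMM-scaled CPM + 0.5 (y), against chase time in hours (x). Each point is the median over 189 members in 1 library, thick bars are quartiles over members, and short lines are the median of 15057 transcripts. The member medians of the 0 h libraries (2.64 to 2.80) lie above those of the 6 h libraries (1.43 to 1.60), and those of 10 h (1.77 to 1.90) lie between them.

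The bend was then tested with contrasts averaged over both hairpins, chosen after the time course was seen. From 0 to 4 h, 166 of 189 members fell (87.8%, where 32.4% of all transcripts did), and 2, ZNF76 and ZNF664, rose (1.06%, against 32.1%, and 64.5% of all transcripts passed in either direction). Without the first shControl 0 h library 7 rose. The median change was -1.04 log2, and under TMM, DESeq2 size factors and total counts it stayed 1.07 below the median of all transcripts. From 6 to 10 h, 102 members were higher (54.0%, against 33.6% of all) and 17 lower (8.99%, against 30.3%, with 63.9% of all passing either way) under TMM, with a median of 0.32 log2, but under total-count scaling 41 were higher and 51 lower, with a median of -0.02. That scaling moved the median of all transcripts from 0.03 to -0.31, so relative to it the member median was 0.29 higher under either scaling. The shares of all transcripts called under total counts are not given here. Of the members that fell from 0 to 4 h, 94 (56.6%) were higher at 10 h than at 6 h under TMM, and the same held for 35.7% of all transcripts that fell. TMM factors themselves moved with time, from 1.17 to 1.25 at 0 h down to 0.716 to 0.770 at 10 h, and their part in the turn was not tested.

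Under TMM, 11 members were lower in both contrasts (5.82%, against 7.21% of all transcripts), and under total-count scaling these 11 were among 43 (22.8% of the members). The share of all transcripts under total counts is not given here, and the 7.21% holds for TMM only. The 11 were ZNF131, ZNF138, ZNF207, ZNF300, ZNF33A, ZNF395, ZNF484, ZNF641, ZNF678, ZNF706 and ZNF81. ZNF207 read 51.9 and 61.9 CPM at 0 h in shControl, 45.2 and 50.5 at 4 h, 36.1 and 39.6 at 6 h and 28.1 and 27.1 at 10 h. It lost little in the first hours, and the libraries of 0, 6 and 10 h did not overlap. At 24 h, 161 members in shControl and 160 in shZNF598 stood above their 10 h mean, and 49 and 44 stood above their 0 h mean, values that rest on 1 library per hairpin and were not tested.

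**Figure D3:**
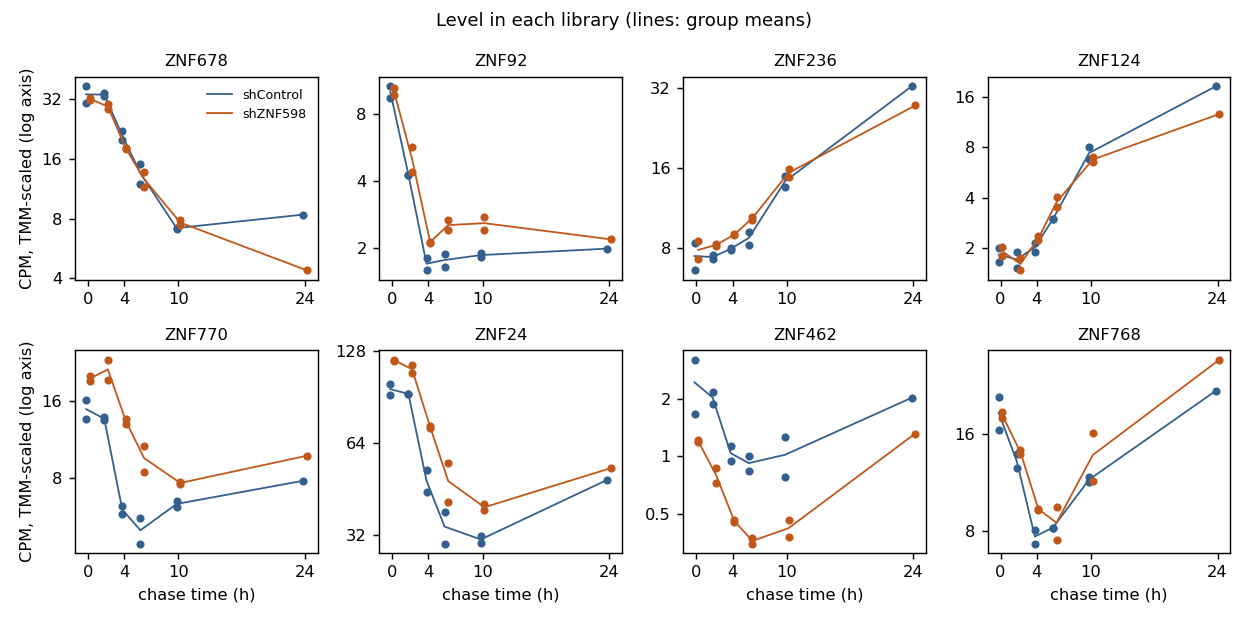
TMM-scaled CPM (y, log axis) against chase time (x, hours) for 8 members. Points are libraries and lines join group means. ZNF678 fell through 10 h, ZNF92 fell before 4 h, ZNF124 rose from 4 h and ZNF236 after 6 h, ZNF770 and ZNF24 were higher in shZNF598, ZNF462 was lower in shZNF598, and ZNF768 fell and then rose with little gap between hairpins.

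By role, 3 lists of members with known duties are given beside the 64.6% of all members and the 42.4% of all transcripts that declined in shControl. The lists were chosen with earlier results of these data known, so their shares are a description only. Among 10 proteins of RNA, ribosome and spindle biology, 8 (80%) declined and 1 (ZNF326) rose under TMM, with a median slope of -0.11 log2 per h. The lowest was ZNF330, a nucleolar protein, at -0.18. Among 14 chromatin and co-repressor proteins 11 (78.6%) declined and none rose (median -0.12), with ZNF687 lowest at -0.19 and ZNF532 highest at -0.001, which did not pass. Among 10 other DNA-binding regulators 8 (80%) declined and none rose (median -0.15), from ZNF202, which is known to carry SCAN and KRAB domains, at -0.19 to ZNF76 at 0.01, which did not pass. ZNF281 and ZNF217, regulators of stem cell genes and of a co-repressor complex, lost most of their signal early: their changes from 0 to 4 h were -2.43 and -2.81 log2. The 10 partners through which KRAB proteins act (not ZNF genes) had 4 lower, 2 higher and a median of -0.03 under TMM. TRIM28 itself had a slope of 0.04 log2 per h and SETDB1 one of -0.07.

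By protein pattern, the 65 KRAB members had a median slope of -0.12 log2 per h in shControl, the 124 others -0.11. For the change from 0 to 4 h the medians were -1.29 and -0.98. Members with 1-4, 5-9 and 10 or more fingers had median slopes of -0.12, -0.12 and -0.11, and median changes from 0 to 4 h of -0.84, -0.98 and -1.29. Across the 189 members, which are not independent replicates, the number of fingers had a Spearman rho of 0.05 with the slope and of -0.17 with the change from 0 to 4 h, and 3′ UTR length had 0.03 and 0.22. The patterns describe the canonical protein, which is the measured transcript for 124 of the members.

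By chromosome, 11 held at least 8 members each. Chromosome 7 held 25, of which 17 (68%) declined and 1 (ZNF789) rose in shControl, and chromosome 16 held 21, of which 12 (57.1%) declined and 1 (ZNF276) rose, beside 64.6% lower and 4.23% higher among all members. The medians of the 11 chromosomes ran from -0.14 log2 per h (chromosome 6, with 7 of 8 lower) to -0.04 (chromosome 12, with 5 of 11 lower). The lowest and the highest slope on chromosome 6 were those of ZNF391 and ZNF76, and on chromosome 12 those of ZNF740 and ZNF664.

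ZNF genes on chromosome 19 and ZBTB genes, which join C2H2 fingers to a BTB domain, served as families to compare. Of 143 ZNF genes on chromosome 19, 100 declined and 3 rose in shControl (median -0.12), and of 34 ZBTB genes 28 declined and none rose (median -0.13). From 0 to 4 h their medians were -1.58 and -1.52, lower than the -1.04 of the members. No test was run between these sets.

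In shZNF598 cells, 116 members declined (61.4%, against 40.2% of all transcripts) and 9 rose (4.76%, against 31.8%, with 72% of all transcripts passing either way), with a median slope of -0.10 log2 per h beside -0.02 for all transcripts. Of the members, 112 (59.3%) declined and 8 (4.23%) rose under both hairpins, against 38.0% and 29.6% of all transcripts. The slopes of the 2 hairpins had a Pearson r of 0.961 across the 189 members, a description over genes that share libraries. ZNF678 read 31.5 and 32.4 CPM at 0 h in shZNF598, 18 and 17.8 at 4 h and 7.88 and 7.39 at 10 h, a slope of -0.22 beside the -0.24 in shControl.

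**Figure D4:**
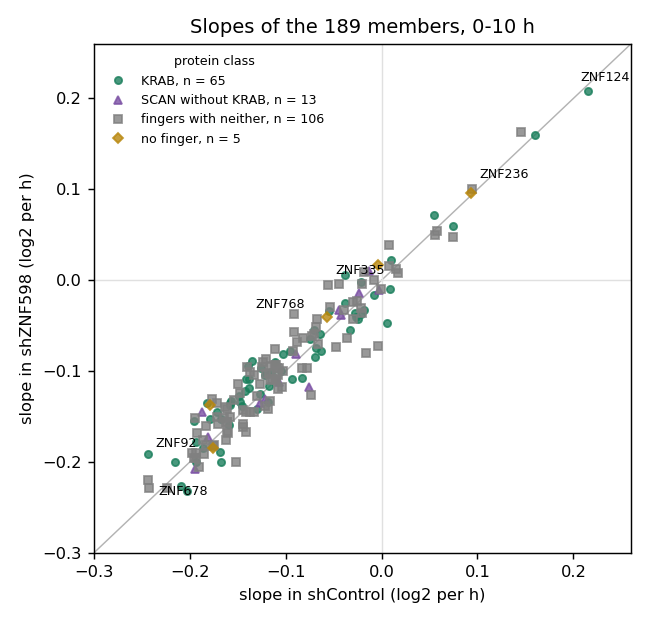
Slope in shZNF598 (y, log2 per h) against slope in shControl (x, log2 per h) for the 189 members, with 1 symbol per protein class and the line of equal slopes. The points follow the line (Pearson r of 0.961), and no member's difference passed the test.

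Whether the knockdown changed the decline was tested as the difference between slopes. No member passed (0 of 189, where 0.0664% of all transcripts did, all 10 with a lower slope in shZNF598 and 0% with a higher one), and DESeq2's Wald test called none either. Of all 15057 transcripts 642 had an unadjusted edgeR p below 0.05, and of the 189 members 1 did: ZNF335, a subunit of a histone methyltransferase complex. It read 7.24 and 7.27 CPM at 0 h and 4.97 and 4.59 at 10 h in shControl, and 7.84 and 7.22 at 0 h and 5.86 and 7.51 at 10 h in shZNF598. The hairpins overlapped at 0 h and not at 10 h, with a slope difference of 0.05 log2 per h (SE 0.02, unadjusted p = 0.0179, edgeR adjusted p = 1.0). The differences of all members lay between -0.07 (ZNF852) and 0.05 (ZNF668), with a median SE of 0.05. Of the 189, 120 (63.5%) were above 0, as were 50.5% of all transcripts, and the median was 0.0066 log2 per h beside 0.0003 for all transcripts. This small shift did not hold for every library: the median was -0.01 and -0.0021 without the first or the second shControl 0 h library, and -0.0162 and -0.0154 without the first or the second shZNF598 10 h library.

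At 0 h, the end of labelling, 0 members differed between hairpins at an adjusted p below 0.05 (where 0.491% of all transcripts were lower and 0.12% higher, 0.611% in all). An unadjusted edgeR p below 0.05 was found for 19 of the 189, and for 1632 of all 15057 transcripts. The median difference was 0.07 log2 beside 0.03 for all transcripts, and 135 of the 189 (71.4%) were above 0, as were 56.2% of all transcripts. The gap between the medians rested on the shControl 0 h libraries: without the first they were 0.14 and 0.03, and without the second 0.03 and 0.04, so that the order turned. ZNF462, a vertebrate developmental regulator with 33 fingers, was lowest: it read 3.24 and 1.68 CPM in shControl and 1.19 and 1.23 in shZNF598. All libraries of the knockdown were lower, but the shControl libraries differed about as much from each other as from them (log2 change -1.02, edgeR adjusted p = 0.058). DESeq2's Wald test called ZNF462 and ZNF608 (adjusted p = 0.039 and 0.036), and 2 and 4 members passed in edgeR without the first or the second shControl 0 h library. The largest unadjusted rises were in ZNF852, ZNF695, ZNF140, ZNF425 and ZNF696, from 0.43 to 0.63 log2, each with an edgeR adjusted p of 0.311 or more. Several rested on 1 library. ZNF695 was 0.81 without the first shControl 0 h library (adjusted p = 0.046) and 0.16 without the second, and ZNF425 was 0.26 and 0.64. ZNF462 was -0.46 and -1.43 in the same fits (adjusted p = 0.352 and 0.000507), and ZNF608 -0.31 and -0.64 (adjusted p = 0.255 and 0.00844).

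Averaged over 0-10 h, a contrast with 10 libraries per hairpin, 45 members differed. In shZNF598, 39 were higher (20.6%, against 13.9% of all transcripts) and 6 were lower (3.17%, against 11.4%), where 25.3% of all transcripts passed in either direction. The median member was 0.09 log2 higher, and the median of all transcripts 0.02 higher. This contrast compares levels at all times and not decline, and 0 h is 1 of the 5 times it averages. All 39 had a positive difference and all 6 a negative one at 0 h. These signs are not independent of the calls, and 0 members passed at 0 h itself. The sizes were small, since 2 of the 45, ZNF462 and ZNF770, differed by more than 1.5-fold. The 2 libraries of one hairpin lay wholly above or below those of the other at each of the 5 times for 12 of the 45, and at 4 times for the median member called. When each library was left out in turn, 27 of the 45 calls held in all 20 fits and 18 were lost in at least 1. Both counts describe members picked with these same libraries, and the shares over all transcripts are not given here.

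**Figure D5:**
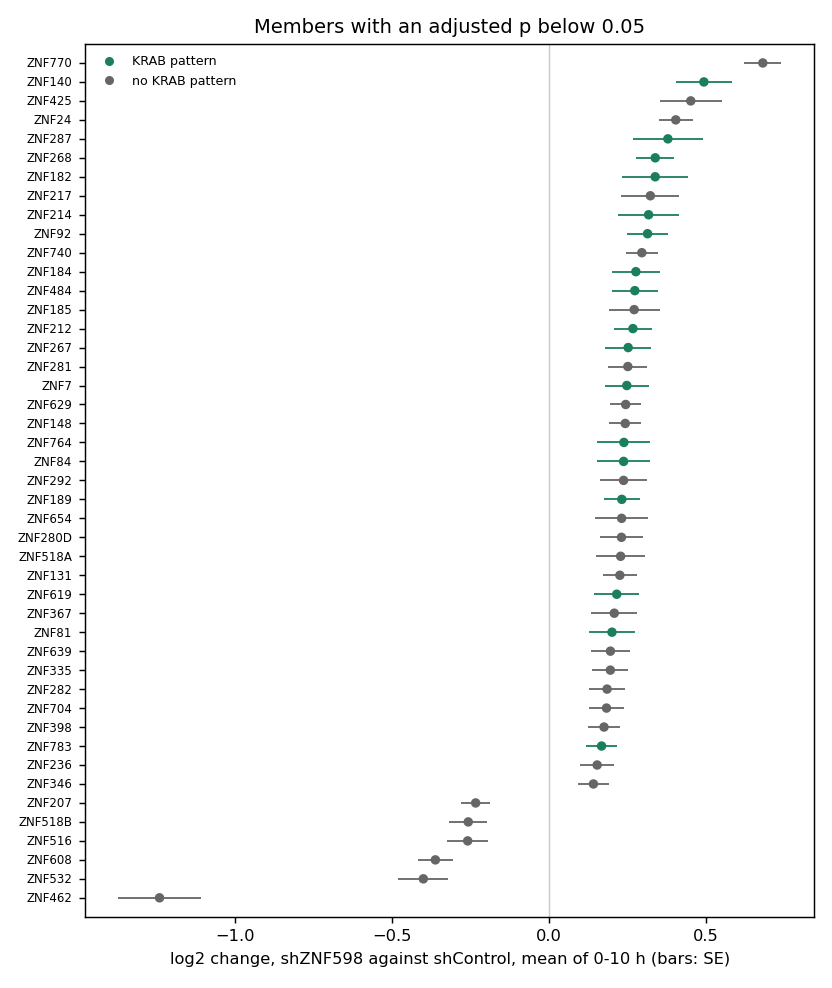
Log2 change in shZNF598 against shControl averaged over 0-10 h (x), with SE bars, for the 45 members with an adjusted p below 0.05 (y, gene). The 39 higher members lie between 0.14 and 0.68, 17 of them with a KRAB pattern, and ZNF462 stands apart at -1.24.

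ZNF770, a protein of 10 fingers encoded on chromosome 15, was the highest. It read 16.2 and 13.6 CPM in shControl and 20.04 and 19.2 in shZNF598 at 0 h, 5.77 and 6.21 against 13.7 and 13.0 at 4 h, 5.54 and 4.41 against 10.7 and 8.45 at 6 h, and 6.11 and 6.51 against 7.70 and 7.55 at 10 h. No library of shControl reached the knockdown's at the same time, and the gap was widest at 4 h, where the means differed 2.23-fold. The averaged change was 0.68 log2 (SE 0.06, edgeR adjusted p = 1.30e-08). Exons of genes on the other strand cover 31.9% of its transcript. ZNF24, a SCAN protein linked to cell proliferation, read 100.1 and 92.3 CPM in shControl and 120.2 and 119.4 in shZNF598 at 0 h, and 44.2 and 52.2 against 71.6 and 73.1 at 4 h. Its libraries also kept apart at every time, with an averaged change of 0.40 log2 (SE 0.06, edgeR adjusted p = 1.16e-05).

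Other members that were higher in every left-out fit included ZNF140, ZNF425, ZNF268, ZNF217, ZNF740, ZNF281 and ZNF148, at 0.49, 0.45, 0.34, 0.32, 0.30, 0.25 and 0.24 log2. ZNF140, a KRAB repressor gene on chromosome 12, overlaps ZNF891 on the opposite strand over 81.7% of its transcript, and ZNF740 has 23.2% of such overlap. The study names a stranded library kit. The strand setting of the counting is not given, so whether reads from the other strand were counted for these genes is not known. Calls near the threshold were less secure: ZNF346, which binds double-stranded RNA, was 0.14 higher with an edgeR adjusted p of 0.041, and its call was lost in 15 of the 20 fits. ZNF654, ZNF81, ZNF236 and ZNF367 lost theirs in 16, 15, 14 and 14.

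ZNF462 was lower in shZNF598 at each time. It read 2.20 and 1.90 CPM against 0.724 and 0.864 at 2 h, 1.14 and 0.946 against 0.453 and 0.461 at 4 h, and 1.26 and 0.781 against 0.460 and 0.378 at 10 h. The hairpins did not overlap at any time, and the averaged change was -1.24 log2 (SE 0.13, edgeR adjusted p = 3.65e-07), 2.37-fold lower. In the single 24 h libraries the values were 2.04 and 1.32 CPM. The slopes of ZNF462 in shControl and shZNF598 were -0.14 and -0.17. The other 5 that were lower were ZNF532, ZNF608, ZNF516, ZNF518B and ZNF207, at -0.40, -0.36, -0.26, -0.26 and -0.23 log2, and each of the 6 calls held in all 20 fits.

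Grouped by role, and beside the 13.9% higher and 11.4% lower among all transcripts, 4 of the 14 chromatin and co-repressor members were higher (ZNF217, ZNF518A, ZNF131 and ZNF335) and 4 lower (ZNF462, ZNF532, ZNF516 and ZNF518B). Since the role lists were chosen with earlier results of these data known, their shares are a description only. ZNF518A lost its call in 11 of the 20 fits. Of the 10 other DNA-binding regulators, 3 (ZNF24, ZNF281 and ZNF148) were higher and none lower. Of the 10 RNA, ribosome and spindle members, ZNF346 was higher and ZNF207 lower, shares of 10% each and so close to those of all transcripts. Among members with the KRAB pattern 17 of 65 were higher and none lower (median 0.14). Among the 124 others 22 were higher and 6 lower (median 0.07). Those 22 include ZNF282, ZNF398 and ZNF425, known KRAB proteins that the pattern missed, so the split is not one of KRAB against non-KRAB proteins. Of ZNF genes on chromosome 19, 14 of 143 were higher and 10 lower (median 0.05), and of ZBTB genes 8 of 34 were higher and 4 lower (median 0.08). The difference between these groups was not tested.

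ZNF768, a 10-finger protein gene on chromosome 16 that the study examined further, showed the bend, and no difference between hairpins passed for it. In shControl it read 16.5 and 20.7 CPM at 0 h, 8.09 and 7.34 at 4 h, 11.8 and 11.3 at 10 h and 21.7 at 24 h. In shZNF598 it read 17.8 and 18.6 at 0 h, 9.40 and 9.32 at 4 h, 11.4 and 16.1 at 10 h and 27.1 at 24 h. The hairpins overlapped at 0, 6 and 10 h, touched at 2 h (13.8 CPM in both) and were apart at 4 h, where shZNF598 was higher. The fall from 0 to 4 h was -1.13 log2 (SE 0.10, edgeR adjusted p = 1.77e-09). The slope difference was 0.03 log2 per h (SE 0.05, adjusted p = 1.0) and the averaged change 0.13 (SE 0.06, adjusted p = 0.142).

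Apparent half-lives were computed by the rule of the study, in which the log2 change against 0 h is regressed on time over 0-4, 0-6, 0-10 and 0-24 h and the window with the highest R² is kept. They were reliable (R² above 0.9, and between 0 and 24 h, under both hairpins) for 128 members, and they are relative to the bulk because no spike-in correction was applied here. The median was 2.99 h in shControl (quartiles 2.33 and 4.25 h) and 3.14 h in shZNF598 (quartiles 2.28 and 4.43 h). For 3251 transcripts of any kind the medians were 4.09 and 4.20 h. The half-life was longer in shZNF598 for 70 of the 128 members (54.7%), and for 54.6% of all transcripts. The shortest in shControl were ZNF239 (1.29 h), ZNF217 (1.31 h) and ZNF691 (1.46 h), and the longest were ZNF207 (19.5 h) and ZNF395 (11.6 h). The 19.5 h of ZNF207 does not describe its whole chase: its shControl readings given above fell further between 6 and 10 h. ZNF768 had 3.27 and 4.36 h. The 0-4 h window was the one kept for 93 members in shControl and 98 in shZNF598, so these values describe the early fall. With the window fixed at 0-10 h only 8 members were reliable, with a median of 7.22 h in shControl.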

How the data were processed

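According to the study's methods and labels, the authors trimmed reads with fastp, removed reads of noncoding RNA, and aligned the rest with STAR 2.7.0a to hg38 with GENCODE release 32. Reads were counted per transcript with featureCounts, whose version, strand setting and treatment of reads shared by isoforms are not given in the sources used here. The deposited values are raw counts, beside each transcript's length divided by 3. Of 227264 identifiers, 98.4% matched GENCODE release 44 (GRCh38), which gave symbols, positions and proteins. No RefSeq protein was used, so the planned protein patterns were run on translated GENCODE canonical transcripts.

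Counts were tested with edgeR 4.0.16 (quasi-likelihood, TMM, Benjamini-Hochberg over the 15057 transcripts whose mean reached 1 CPM) in R 4.3.3. The slope difference and the 0 h difference were also run on simulated counts. Those had the same spread for every gene and no decline in shControl, a simpler setting than these data. A model of shRNA, chase hours and their product gave slopes and a model of group means gave level contrasts. The SE is the estimate over the square root of F. Half-lives used DESeq2 1.42.0 log2 changes against 0 h. Total-count scaling and the contrasts between times were added after seeing the data. The 24 h libraries entered half-lives, 1 alternative and descriptions. Named members were ZNF768, the 5 of highest CPM, the 8 lowest and 8 highest shControl slopes, members called in a difference plus up to 5 per direction at an unadjusted p below 0.05, and the extremes of each list and chromosome. Members and lists were chosen with earlier results of these data known. A level given for a library is TMM-scaled CPM; plots on a log2 scale add 0.5.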

Additional observations from a re-analysis of the deposited data

How the results depend on the processing

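Alternatives covered scaling (DESeq2 size factors, total counts), DESeq2's Wald test, no filter on low counts, all transcript rows, chase windows, the replicate block and each of 20 libraries left out. The counts of members that declined were 122 in shControl and 116 in shZNF598; they were 19 and 12 over 0-24 h, and 73 and 68 without the 0 h libraries. Leaving out 1 library gave 98 to 129 and 96 to 123. The shares of all transcripts called in the alternatives are not given here. The 0 h difference called 0 members, but 1 with DESeq2 size factors, 2 with DESeq2's Wald test, 1 with no filter and 1 with the replicate block, and between 0 and 4 with a library left out (2 without the first shControl 0 h library, 4 without the second). The slope difference called 0 in each alternative run, and its median was -0.0022 over 0-24 h. The averaged difference called between 32 and 45 higher and 6 lower in the alternatives that kept all libraries or left out those of 0 h, and 27 to 52 higher and 6 or 7 lower with 1 library left out. The count higher from 6 to 10 h, 102, was 41 under total-count scaling, a choice made after seeing the data, as were the contrasts between times. Reliable half-lives fell from 128 to 8 with a fixed 0-10 h window.

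Members whose shControl slope changed sign were ZNF664 (-0.0188 under total counts, -0.0102 over 0-24 h), ZNF789 (-0.00156 under total counts, -0.0240 over 0-4 h), ZNF326 (-0.00179 under total counts, -0.0137 over 0-24 h), ZNF185 (-0.00621 over 0-4 h, -0.0144 over 0-24 h) and ZNF354B (-0.00498 over 0-4 h). The cause was not tested. The labels do not say whether replicate numbers pair the libraries, and correlations between groups cannot decide it. The deviations of same-numbered libraries correlated at -0.337 to 0.490 between groups (median 0.035), above 0.1 in 17 of 45 pairs. With the block, 118 and 116 members declined, 45 were higher on average, and ZNF462 was called at 0 h (-0.99, edgeR adjusted p = 0.024). Under total counts ZNF236 and ZNF185 lost their calls. ZNF789 lost its call without the first or the second shControl 10 h library (edgeR adjusted p = 0.057 and 0.069). The median member had at least 105 counts in each library of 0-10 h, and 88 in the shControl library of 24 h.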
